A study of Homo sapiens with 12 samples.

Results

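Clustered histone genes were examined in gemcitabine (GEM)-resistant pancreatic cancer cells. The 90 members were the rows of the FPKM table whose gene name began with HIST1H, HIST2H, HIST3H or HIST4H, out of 58302 genes in all, and this rule uses names and no measured value. BxPC-3 and CFPAC-1 are pancreatic cancer cell lines. GEM-resistant descendants of both, named with the suffix GR, had been selected with stepwise rising doses of GEM. Per the study's methods, survivors of each exposure were expanded in medium without GEM, and treatment at a final dose followed. Each of the 4 lines was sequenced as 3 libraries of total RNA from cells with no engineered allele, and comparisons were made within each pair of lines.

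Histones are the proteins around which DNA is wound. H2A, H2B, H3 and H4 form the core of the nucleosome, and the linker histone H1 binds the DNA between nucleosomes. The clustered genes are the replication-dependent copies, which cells transcribe mainly in S phase, when new DNA has to be packed. Their main mRNAs carry no poly(A) tail and end in a short stem-loop that SLBP binds, although several of these genes also give polyadenylated transcripts.

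There was 1 resistant line per parental line, so the selection and the derivation of a single line cannot be told apart. The labels did not say whether the 3 libraries of a line came from separate cultures, and p-values therefore measure only the spread between these libraries, which may be technical. Selection of polyadenylated RNA is not given in the sources used here, and the labels give RPMI 1640 for all lines while the study's methods name another medium for CFPAC-1 and CFPAC-1-GR. The fragment steps in the table implied 12600000 to 25200000 mapped fragments per library. The 7 epithelial markers examined summed to 838 to 925 FPKM in BxPC-3 and 946 to 1040 FPKM in BxPC-3-GR, with none at 0. Their sums were lower in CFPAC-1-GR (1160 to 1350 FPKM) than in CFPAC-1 (2640 to 2910 FPKM). None was at 0 there either, but 1 averaged under 1 FPKM in CFPAC-1-GR. The 8 markers of other cells summed to 2.3 to 4.83 FPKM in the BxPC-3 pair, 31.1 to 38.3 FPKM in CFPAC-1 and 13.1 to 15.5 FPKM in CFPAC-1-GR, mostly from CD68, and the blood cell marker PTPRC was at 0 throughout. BxPC-3-GR is labelled mesenchymal and the other lines epithelial. Of 5 mesenchymal markers 3 were tested in BxPC-3-GR: CDH2 was higher (1.99 to 5.40 FPKM), FN1 averaged 5.30 and 9.10 FPKM, and VIM was lower (6.59 to 0.813 FPKM). The epithelial cadherin CDH1 averaged 43.0 and 45.3 FPKM.

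Of the 90 members, 71 are protein coding and 18 are pseudogenes in GENCODE 29, and HIST2H2BC was not matched there. The large HIST1 cluster holds 66 members on chromosome 6 (GRCh38, chr6:25726132-27893843), and 2 HIST1 pseudogenes lie on chromosome 13. HIST2 (17 members) and HIST3 (4 members) lie on chromosome 1, and HIST4H4 is alone on chromosome 12. By type there were 8 H1, 23 H2A, 26 H2B, 17 H3 and 16 H4 genes. The 71 coding genes encode 37 distinct proteins. The same H4 protein of 103 residues comes from 14 of them, and the same H3 protein of 136 residues comes from 10 HIST1 genes. For 18 members, over 50% of the 100-base windows of their transcripts also occur in another gene, so reads of HIST2H2AA3 and HIST2H2AA4, of HIST2H4A and HIST2H4B, and of HIST2H3A and HIST2H3C may have been divided between the copies in ways the table does not show.

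The members share short sequences that few other genes carry. The stem-loop was found in the annotated transcripts of 32 of the 71 coding members (45.1%), against 23 of 206572 transcripts of other genes (0.0111%). It was not found in the transcripts annotated for HIST1H1C and HIST1H2BK. Those transcripts, of 642 and 381 bases for proteins of 213 and 126 residues, hold the coding sequence alone. Many other members without a match are annotated in the same way, so a missing match does not show a missing stem-loop. The forms found in more than 1 gene are shown from 5′ to 3′ in the DNA letters of GENCODE 29, with the paired stem in capitals. The first was carried by 17 genes, among them HIST2H2AA3, HIST2H2AA4, HIST1H2AC and HIST1H3H, and the second by 5 genes, among them HIST1H4H and HIST1H4J. The next was carried by 5 genes with HIST1H2BC and HIST1H2BD among them, and the last by HIST1H4I, HIST2H4A and HIST2H4B.
first form: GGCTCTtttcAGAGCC
second form: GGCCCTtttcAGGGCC
next form: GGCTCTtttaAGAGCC
last form: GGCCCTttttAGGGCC

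Promoters of the genes that the results turn on are shown as the 150 bases before the RefSeq start site on the coding strand (GRCh38.p14), from 5′ to 3′. Capitals mark the letters of 4 motifs that were searched on both strands: the TATA box TATAAA, the CCAAT box CCAAT, the octamer ATTTGCAT that POU2F1 binds, and the H1 box AAACACA. HIST1H2BK, HIST1H1C and HIST2H2AA4 are shown because their mRNA was lower in both resistant lines, and HIST1H2BC, HIST1H2AC, HIST1H3H and HIST1H4H because their change differed between the lines.
HIST1H1C (chr6:26056471-26056620, minus strand): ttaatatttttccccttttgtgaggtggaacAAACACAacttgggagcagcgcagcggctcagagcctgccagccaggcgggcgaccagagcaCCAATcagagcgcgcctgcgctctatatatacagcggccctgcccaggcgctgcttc
HIST2H2AA4 (chr1:149850911-149851060, plus strand): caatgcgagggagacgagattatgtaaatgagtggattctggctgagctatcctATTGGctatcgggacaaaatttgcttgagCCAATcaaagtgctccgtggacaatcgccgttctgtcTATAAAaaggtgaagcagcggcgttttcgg
HIST1H2AC (chr6:26124022-26124171, plus strand): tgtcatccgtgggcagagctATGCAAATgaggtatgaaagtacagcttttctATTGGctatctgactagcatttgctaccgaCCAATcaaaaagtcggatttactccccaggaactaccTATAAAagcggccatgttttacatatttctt
HIST1H2BK (chr6:27146856-27147005, minus strand): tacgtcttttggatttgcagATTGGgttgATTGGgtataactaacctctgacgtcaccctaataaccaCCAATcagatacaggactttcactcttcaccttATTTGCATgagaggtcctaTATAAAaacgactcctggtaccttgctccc
HIST1H2BC (chr6:26123927-26124076, minus strand): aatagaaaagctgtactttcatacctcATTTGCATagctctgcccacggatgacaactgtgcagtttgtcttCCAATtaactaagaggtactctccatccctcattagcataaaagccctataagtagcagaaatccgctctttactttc
HIST1H3H (chr6:27809901-27810050, plus strand): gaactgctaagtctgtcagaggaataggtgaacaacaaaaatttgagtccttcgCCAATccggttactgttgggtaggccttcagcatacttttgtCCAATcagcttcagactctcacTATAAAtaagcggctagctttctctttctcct
HIST1H4H (chr6:26285535-26285684, minus strand): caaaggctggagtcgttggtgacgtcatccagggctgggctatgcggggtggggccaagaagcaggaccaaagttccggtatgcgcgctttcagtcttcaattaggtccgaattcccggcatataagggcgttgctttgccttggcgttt

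A promoter entry was found for 66 of the 71 coding members, and the 250 bases before the start were searched. TATAAA was present in 44 of the 66 (66.7%) against 11.4% of 27305 genes with an entry, and CCAAT in 56 (84.8%) against 32.7%. The octamer was in 25 (37.9%) against 1.7%, in 11 of 16 H2A and 14 of 18 H2B promoters and in no H1, H3 or H4 promoter. The windows of neighbouring H2A and H2B genes can overlap, so a single match can be counted for both genes. The octamers marked above for HIST1H2AC and HIST1H2BC are the same site on opposite strands. The counts are therefore of genes and not of separate sites. The H1 box AAACACA was in the 6 H1 promoters and in no promoter of another type, against 4.94% of all genes. CCAAT was in every H1, H2A, H2B and H3 promoter with an entry but in 3 of 13 H4 promoters. These matches describe letters in a window and are not measured binding sites.

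The clustered histone mRNA that these libraries held was lower in both resistant lines, and most of it came from few genes. If polyadenylated RNA was selected, which is not given, the sums would miss much of the mRNA without a poly(A) tail. The members summed to 459 ± 21.8 FPKM (SD, n = 3) in BxPC-3 and 116 ± 1.36 FPKM in BxPC-3-GR, a ratio of group means of 3.95. In CFPAC-1 the sum was 596 ± 20.3 FPKM and in CFPAC-1-GR 243 ± 9.54 FPKM, 2.45-fold lower. The libraries of the resistant and parental cells did not overlap in either line. Members took 0.143 to 0.161% of all FPKM in BxPC-3 and 0.038% in BxPC-3-GR. In the CFPAC-1 pair the share was 0.215 to 0.228% in parental and 0.088 to 0.091% in resistant libraries. In bulk RNA, fewer cells in S phase and less histone mRNA per cell cannot be told apart. HIST1H2BK and HIST1H1C alone gave 60.3% of the sum in BxPC-3, 40.8% in BxPC-3-GR, 66.1% in CFPAC-1 and 48.4% in CFPAC-1-GR. Without the most abundant gene of each type (HIST1H1C, HIST2H2AA4, HIST1H2BK, HIST1H3H and HIST1H4J) the resistant sum was 0.405 of the parental sum in the BxPC-3 pair and 0.784 in the CFPAC-1 pair. At the other end, 12 members were at 0 in the 12 libraries and only 4 averaged at least 10 FPKM.

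Every histone type was lower in BxPC-3-GR, and H3 was the exception in CFPAC-1-GR. H1 summed to 43.7 ± 5.12 FPKM in BxPC-3 and 12.1 ± 0.794 in BxPC-3-GR, and in the CFPAC-1 pair to 130 ± 13.2 and 36.9 ± 5.77. H2A went from 74.7 ± 8.71 to 25.7 ± 2.59 FPKM in the BxPC-3 pair and from 104 ± 7.15 to 37.3 ± 3.53 in the CFPAC-1 pair. H2B, the most abundant type, went from 298 ± 10.5 to 60.9 ± 3.77 FPKM and from 326 ± 3.63 to 142 ± 1.67. The fold was therefore larger for H2B in BxPC-3-GR (4.89) than in CFPAC-1-GR (2.30), while H1 (3.60 and 3.53) and H2A (2.91 and 2.80) had like folds. H3 summed to 16.8 ± 0.803 and 7.01 ± 1.40 FPKM in the BxPC-3 pair and to 9.65 ± 3.19 and 9.24 ± 0.112 in the CFPAC-1 pair. H4 summed to 26.3 ± 1.36 and 10.5 ± 0.286, and to 26.0 ± 1.13 and 17.8 ± 1.43. The 3 parental and 3 resistant libraries stood apart for each type except H3 in the CFPAC-1 pair, where replicate 2 of CFPAC-1 held 13.3 FPKM and the other replicates 7.75 and 7.87. Of the 13.3 FPKM, HIST2H3PS2 gave 4.44, against at most 0.19 in the other libraries of the pair. The overlap rests on that gene, whose windows all occur in other genes. Without it the resistant H3 sums are the higher. In the CFPAC-1 pair several falls rested on 1 gene. Without HIST1H1C the H1 ratio there was 1.92, higher in the resistant cells, without HIST1H2BK the H2B ratio was 0.963, and without HIST1H4J the H4 ratio was 0.99. The H2A ratio without HIST2H2AA4 was 0.467. In the BxPC-3 pair the ratios without these genes were 0.727 for H1, 0.417 for H2A, 0.381 for H2B, 0.517 for H3 and 0.341 for H4. No test was made on the sums.

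**Figure D1:**
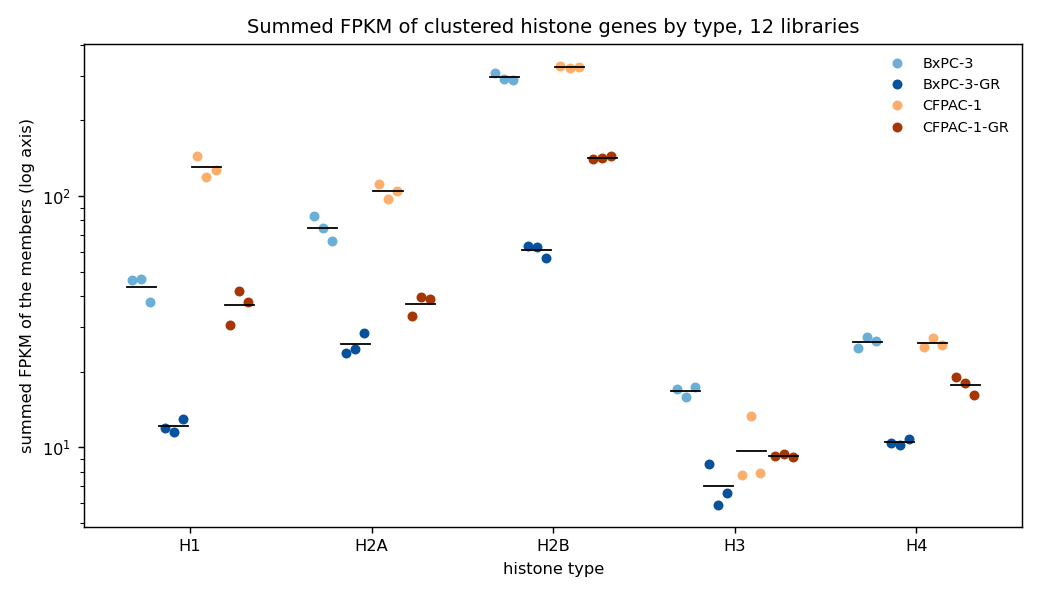
Summed FPKM (log axis) of the clustered histone genes of each type in the 12 libraries, with a point per library and a bar at the mean of each group. The resistant libraries lie below their parental libraries for every type except H3 in the CFPAC-1 pair, where 9.65 ± 3.19 and 9.24 ± 0.112 FPKM overlap. That overlap rests on HIST2H3PS2 in replicate 2 of CFPAC-1.

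Genes were tested with limma on log2(FPKM + 1) where they averaged at least 1 FPKM in the libraries compared, and a gene was called significantly differentially expressed (SDE) when log2FC was at least 1 in size with a p, adjusted by Benjamini-Hochberg, below 0.05. Values of log2FC are given with their standard error, and fold values are ratios of mean FPKM. With 3 libraries against 3, an exact permutation test of a single gene cannot go below a p of 0.1, so the calls rest on the fit across all genes. In BxPC-3-GR, 32 members were tested, 15 were SDE lower and none was SDE higher, where 3.62% of the 11710 genes tested were lower and 4.14% higher. By type, 1 of 1 H1, 4 of 10 H2A, 5 of 11 H2B, 2 of 5 H3 and 3 of 5 H4 genes were called. The log2FC was negative for all 32 tested members (53.9% of all tested genes), except that HIST1H2BM turned positive without BxPC-3 replicate 3 (0.26) or BxPC-3-GR replicate 3 (0.08). It ran from −2.63 to −0.16 with a median of −0.82, against −0.05 for all tested genes, and 26 members were lower with an adjusted p below 0.05, as were 31.5% of all tested genes.

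In CFPAC-1-GR the members were split. Of 30 tested, 9 were SDE lower and 1 higher, where 11.7% of 12051 genes were lower and 20.5% higher. By type, 1 of 2 H1, 5 of 10 H2A, 1 of 9 H2B, 0 of 3 H3 and 2 of 6 H4 genes were lower, and the 1 gene that rose was an H4 gene. A negative log2FC was seen for 18 of 30, against 45.5% of all genes, and the median was −0.19 against 0.13. With an adjusted p below 0.05 irrespective of fold, 14 members were lower and 8 higher, against 34.9% and 44.6% of all genes. In all, 4 genes were lower in both lines: HIST1H1C, HIST1H2BK, HIST2H2AA3 and HIST2H2AA4, which make up 26.7% of the BxPC-3-GR list and 44.4% of the CFPAC-1-GR list. The share of all tested genes lower in both lines was not counted, so this overlap has no background to be set against. HIST2H2AA3 and HIST2H2AA4 share sequence, so their calls are not independent. After correction of the log ratios for gene GC content and length, tried because the members are short and rich in GC, the BxPC-3-GR count stayed at 15 lower (3.45% of all genes) while CFPAC-1-GR held 2 lower (3.97%) and 3 higher (4.69%). The shares of all genes in CFPAC-1-GR also depended on how the libraries were scaled. They were 19.6% lower and 14.1% higher with median-of-ratios scaling, and 24.1% and 11.4% with upper-quartile scaling. The members SDE lower under either scaling were the 9 of the main test and HIST1H2BJ.

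**Figure D2:**
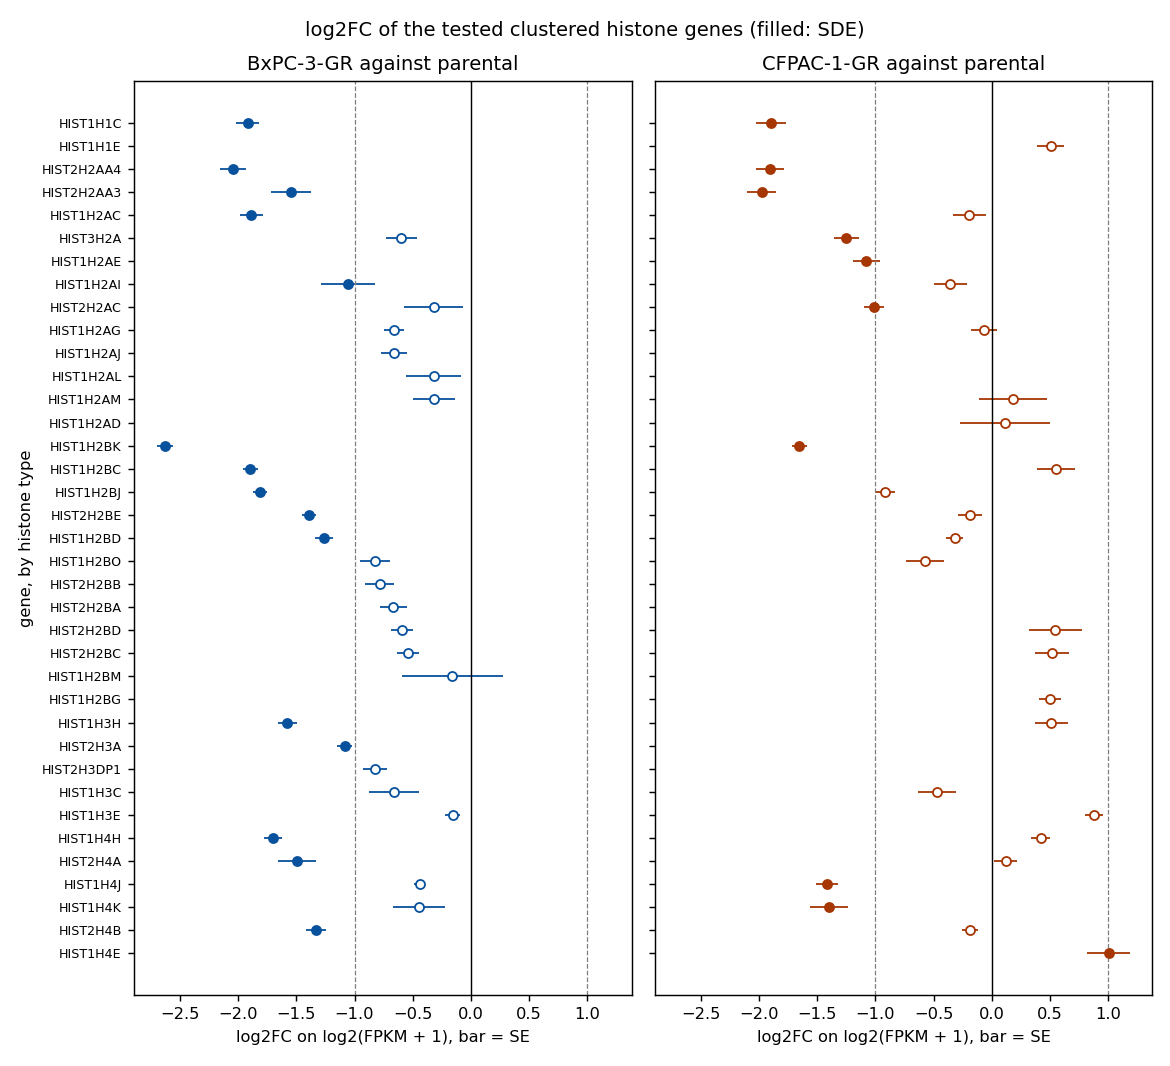
log2FC on the log2(FPKM + 1) scale for each tested clustered histone gene in BxPC-3-GR (left) and CFPAC-1-GR (right), with bars for the standard error, filled points for SDE genes and dashed lines at an absolute log2FC of 1. The points on the left lie below 0 throughout, from −2.63 to −0.16, and those on the right run from −1.98 to 1.0.

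Among the H1 genes, HIST1H1C (chr6:26055787-26056428, minus strand, a single-exon gene for a somatic linker histone) was the one abundant member. Its FPKM was 42.9, 44.5 and 34.6 in BxPC-3 and 9.78, 9.66 and 10.4 in BxPC-3-GR. In CFPAC-1 it was 143, 117 and 126, and in CFPAC-1-GR 28.3, 38.4 and 35.1. Every resistant library lay below every parental library of its line. The log2FC was −1.92 ± 0.10 (adjusted p = 3.4e-05, limma) in BxPC-3-GR, a 4.09-fold lower mean, and −1.90 ± 0.13 (adjusted p = 1.7e-05) in CFPAC-1-GR, 3.79-fold lower. The change differed between the lines by 0.02 (adjusted p = 0.92), and a call was kept in CFPAC-1-GR after the GC content and length correction (−1.13). None of its 100-base windows occurs in another gene.

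The other H1 genes were near the detection limit. HIST1H1E, also a somatic linker histone, averaged 0.942 and 0.884 FPKM in the BxPC-3 pair, where the libraries overlapped and it was not tested. In CFPAC-1 it was at 0.751, 0.736 and 0.517 FPKM and in CFPAC-1-GR at 1.03, 1.47 and 1.62, with a log2FC of 0.50 ± 0.12 (adjusted p = 0.0055), below the fold needed for a call, and 1.44 with a call after the GC content and length correction. HIST1H1B was at 0.272 to 1.52 FPKM in the 12 libraries, which is 3 to 21 fragments, and did not separate the groups in either line. HIST1H1D averaged 0.65 FPKM in BxPC-3 and 0.229 in BxPC-3-GR with no overlap, and 0.157 in CFPAC-1 and 0.78 in CFPAC-1-GR, again with no overlap but in the opposite direction. It was too low to be tested.

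HIST2H2AA4 and HIST2H2AA3, a pair of HIST2 genes for the same H2A protein, led the H2A genes. HIST2H2AA4 (chr1:149851061-149851624, plus strand) was at 31.3, 25.5 and 23.2 FPKM in BxPC-3 and 5.49, 5.42 and 6.07 in BxPC-3-GR. It was at 59.6, 47.2 and 54.1 FPKM in CFPAC-1 and 11.6, 14.4 and 14.7 in CFPAC-1-GR. The groups were far apart in both lines, with a log2FC of −2.05 ± 0.11 (adjusted p = 3.8e-05) and −1.91 ± 0.12 (adjusted p = 1.3e-05). HIST2H2AA3 (chr1:149842188-149842736, minus strand) averaged 8.79 ± 1.38 FPKM in BxPC-3, 2.38 ± 0.74 in BxPC-3-GR, 21.4 ± 1.71 in CFPAC-1 and 4.72 ± 0.834 in CFPAC-1-GR. Its log2FC was −1.55 ± 0.17 (adjusted p = 0.00054) and −1.98 ± 0.12 (adjusted p = 1.1e-05). Since 96.8% and 100% of their windows occur elsewhere, the split of reads between the pair is uncertain, and their summed row was also called lower in both lines. After the GC content and length correction in CFPAC-1-GR, HIST2H2AA3 (−1.01) was still called and HIST2H2AA4 (−0.93) was not.

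HIST1H2AC changed in one line only by the call, and the difference between the lines was itself tested. HIST1H2AC (chr6:26124145-26139116, plus strand) was at 13.3, 12.8 and 12.8 FPKM in BxPC-3 and 2.45, 2.53 and 3.41 in BxPC-3-GR, a log2FC of −1.89 ± 0.10 (adjusted p = 3.5e-05) and a 4.63-fold lower mean. In CFPAC-1 it was at 4.09, 5.71 and 5.52 FPKM and in CFPAC-1-GR at 4.04, 3.83 and 5.14, which overlapped (log2FC −0.19 ± 0.14, adjusted p = 0.24). The difference of the changes was 1.69 ± 0.18 (adjusted p = 8.1e-06), and 0.94 with no call after the GC content and length correction. HIST3H2A (chr1:228456979-228457873, minus strand), the H2A gene of the HIST3 cluster, went the other way round. It was at 13.1, 10.4 and 8.9 FPKM in BxPC-3 and 6.43, 6.62 and 7.11 in BxPC-3-GR (−0.60 ± 0.13, adjusted p = 0.0089, no call). It was at 8.57, 6.73 and 7.84 FPKM in CFPAC-1 and 2.41, 2.55 and 3.02 in CFPAC-1-GR (−1.25 ± 0.11, adjusted p = 3.9e-05, a call that the GC content and length correction ended at −0.45). The difference of −0.65 between the lines was not called.

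Of the remaining H2A genes, HIST1H2AE was at most 0.113 FPKM in the BxPC-3 pair and fell from 4.46 ± 0.777 FPKM in CFPAC-1 to 1.58 ± 0.176 in CFPAC-1-GR (log2FC −1.08 ± 0.11, adjusted p = 0.00011). HIST2H2AC fell in CFPAC-1-GR as well, from 3.43 to 1.19 FPKM (−1.01). HIST1H2AI fell in BxPC-3-GR from 2.18 to 0.56 FPKM (−1.06 ± 0.23, adjusted p = 0.0089). These 3 calls were at the edge of the fold criterion. HIST1H2AE lost its call without CFPAC-1 replicate 1 (−0.96), HIST2H2AC without CFPAC-1 replicate 3 (−0.95) or CFPAC-1-GR replicate 1 (−0.97), and HIST1H2AI without BxPC-3 replicate 2 (−0.96) or BxPC-3-GR replicate 2 (−0.82). After the GC content and length correction HIST1H2AE (−0.43) and HIST2H2AC (−0.06) were not called in CFPAC-1-GR. HIST1H2AG, HIST1H2AM, HIST1H2AJ, HIST1H2AL and HIST1H2AD were tested in at least 1 line and had no call. After that correction, however, HIST1H2AM (1.10) and HIST1H2AD (1.07) were called higher in CFPAC-1-GR.

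HIST1H2BK had the highest level of any member and, on the log2(FPKM + 1) scale, the largest change of those tested in BxPC-3-GR. The gene (chr6:27146418-27146798, minus strand) encodes an H2B protein and is 381 bases long in the annotation. Its FPKM was 250, 231 and 227 in BxPC-3 and 39.2, 38.4 and 34.6 in BxPC-3-GR. In CFPAC-1 it was 270, 265 and 261, and in CFPAC-1-GR 78.8, 86.8 and 85.6. These values rested on 1274 to 1995 fragments in each parental library and 316 to 655 in each resistant one. The log2FC was −2.63 ± 0.07 (adjusted p = 3.4e-06) in BxPC-3-GR, 6.31-fold lower, and −1.65 ± 0.07 (adjusted p = 6.3e-06) in CFPAC-1-GR, 3.17-fold lower. The response differed between the lines by 0.97 ± 0.09 (adjusted p = 2.7e-06), just short of the fold criterion, which was met without BxPC-3 replicate 3 (1.0), BxPC-3-GR replicate 1 (1.01) or CFPAC-1-GR replicate 1 (1.02). After the GC content and length correction the value in CFPAC-1-GR was −0.76 with no call. Of its windows, 28.4% also occur in H2BFS, an H2B gene outside the clusters that was lower in both lines too (28.6 to 3.98 FPKM and 35.5 to 8.43 FPKM).

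**Figure D3:**
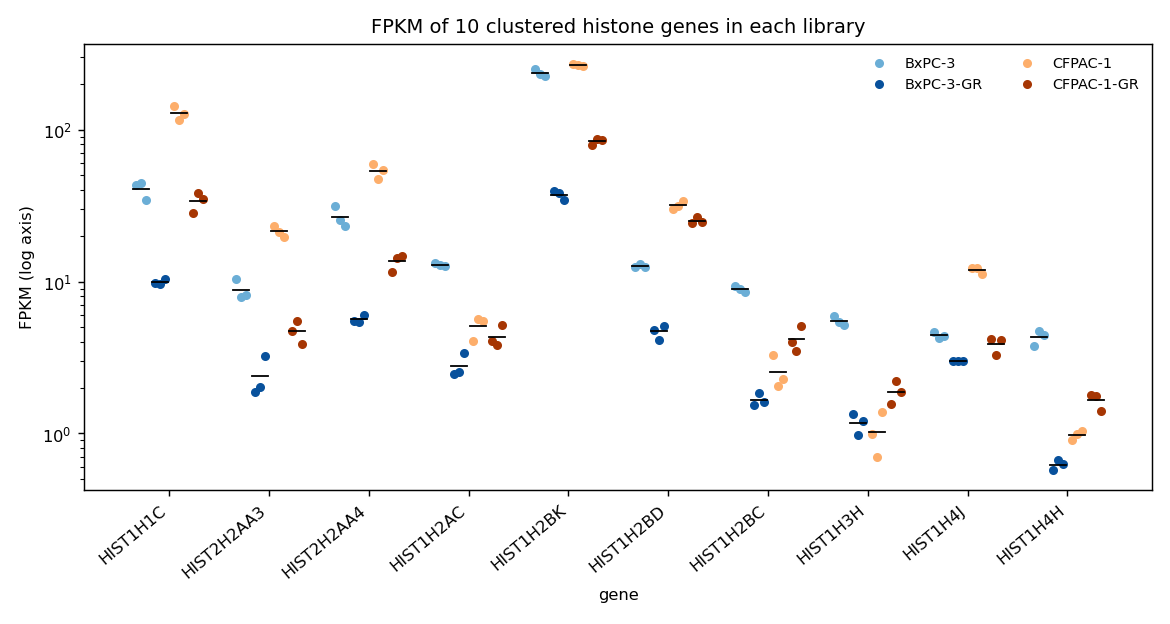
FPKM (log axis) of 10 clustered histone genes in each of the 12 libraries, with a point per library and a bar at each group mean. HIST1H1C, HIST2H2AA3, HIST2H2AA4 and HIST1H2BK fall in both resistant lines, whereas HIST1H2BC, HIST1H3H and HIST1H4H lie below parental in BxPC-3-GR and above parental in CFPAC-1-GR.

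HIST1H2BC gave the largest difference between the lines on the log2(FPKM + 1) scale, whereas with a pseudocount of 0.1 it was 3.06 and that of HIST1H4H 3.29. The gene (chr6:26114873-26123926, minus strand) encodes an H2B protein that 4 other HIST1 genes encode too. It was at 9.31, 8.95 and 8.52 FPKM in BxPC-3 and 1.55, 1.84 and 1.6 in BxPC-3-GR, a log2FC of −1.90 ± 0.06 (adjusted p = 6.6e-06) and a 5.36-fold lower mean. It was at 3.31, 2.06 and 2.28 FPKM in CFPAC-1 and 4.03, 3.47 and 5.07 in CFPAC-1-GR, where every resistant library was the higher (0.55 ± 0.16, adjusted p = 0.017, under the fold needed). The changes differed by 2.45 ± 0.19 (adjusted p = 5.2e-07), and by 2.31 after the GC content and length correction. No other gene shares its 100-base windows.

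Other H2B genes of the BxPC-3-GR list had smaller or no changes in CFPAC-1-GR. HIST1H2BD (chr6:26158146-26171349, plus strand), the second most abundant H2B gene, was at 12.4, 13.1 and 12.4 FPKM in BxPC-3 and 4.82, 4.14 and 5.14 in BxPC-3-GR (−1.26 ± 0.08, adjusted p = 5.6e-05). It was at 29.9, 31.4 and 34.1 FPKM in CFPAC-1 and 24.5, 26.6 and 24.7 in CFPAC-1-GR (−0.32 ± 0.08, adjusted p = 0.0066), separated but by little, and its span overlaps AL353759.1 and LARP1P1. HIST2H2BE (chr1:149884459-149886652, minus strand) averaged 8.42 FPKM in BxPC-3 and 2.59 in BxPC-3-GR (−1.39 ± 0.06, adjusted p = 1.8e-05), and 6.45 and 5.51 FPKM in the CFPAC-1 pair, where libraries overlapped (−0.19 ± 0.10, adjusted p = 0.14). HIST1H2BJ was lower in both lines without overlap, from 6.72 to 1.21 FPKM (−1.81) and from 4.05 to 1.68 FPKM (−0.91, which is under the fold criterion but meets it under either other scaling of the libraries). The pseudogene HIST2H2BD averaged 9.21 and 5.80 FPKM in the BxPC-3 pair (−0.59, adjusted p = 0.0025) and 5.46 and 8.37 FPKM in the CFPAC-1 pair (0.54 ± 0.23, adjusted p = 0.061).

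H3 genes were low, and HIST1H3H led them. HIST1H3H (chr6:27810064-27811300, plus strand) encodes the H3 protein common to the 10 HIST1 H3 genes. It was at 5.91, 5.4 and 5.16 FPKM in BxPC-3 and 1.35, 0.973 and 1.21 in BxPC-3-GR (−1.58 ± 0.08, adjusted p = 3.2e-05), a 4.67-fold lower mean. In the CFPAC-1 pair it was at 0.999, 0.705 and 1.39 FPKM and at 1.56, 2.22 and 1.87, the resistant libraries being the higher (0.51 ± 0.14, adjusted p = 0.014, no call). The changes differed by 2.09 ± 0.18 (adjusted p = 1e-06). HIST1H3C, for the same protein, was lower in both lines with no call, from 2.11 to 0.923 FPKM (−0.66, adjusted p = 0.038) and from 1.48 to 0.758 FPKM (−0.47, adjusted p = 0.032). HIST1H3E averaged like values in the BxPC-3 pair (1.23 and 1.0 FPKM, −0.16, adjusted p = 0.073) and was at 0.57 FPKM in CFPAC-1 and 1.89 FPKM in CFPAC-1-GR (0.88 ± 0.08, adjusted p = 5e-05, short of the fold criterion). HIST2H3A, whose windows all occur in another gene, fell from 2.03 to 0.426 FPKM in BxPC-3-GR (−1.09 ± 0.06, adjusted p = 5.1e-05).

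The H4 genes, which encode 1 protein among 14 of them, were called in different lines. HIST1H4J (chr6:27824108-27824480, plus strand) was at 4.63, 4.24 and 4.39 FPKM in BxPC-3 and 2.98, 2.98 and 3.02 in BxPC-3-GR (−0.44 ± 0.05, adjusted p = 0.00055, no call). It was at 12.3, 12.3 and 11.3 FPKM in CFPAC-1 and 4.18, 3.29 and 4.14 in CFPAC-1-GR (−1.42 ± 0.09, adjusted p = 1.4e-05), 3.09-fold lower, and −0.49 with no call after the GC content and length correction. HIST1H4K, which shares its windows with other members, fell in CFPAC-1-GR too, from 4.23 to 1.01 FPKM (−1.40 ± 0.16, adjusted p = 0.00018), and was not called after that correction (−0.46). HIST1H4H (chr6:26277609-26285638, minus strand) was the reverse. It was at 3.78, 4.71 and 4.43 FPKM in BxPC-3 and 0.575, 0.67 and 0.627 in BxPC-3-GR (−1.70 ± 0.08, adjusted p = 2e-05), 6.9-fold lower. In CFPAC-1 it was at 0.902, 0.993 and 1.04 FPKM and in CFPAC-1-GR at 1.78, 1.77 and 1.4, all higher (0.42 ± 0.08, adjusted p = 0.0027, and −0.12 after the GC content and length correction). The changes differed by 2.12 ± 0.11 (adjusted p = 3.8e-08).

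HIST2H4A and HIST2H4B, whose transcripts are shared with other genes along their whole length, had the BxPC-3-GR pattern. HIST2H4A was at 7.14, 10.2 and 9.06 FPKM in BxPC-3 and 2.92, 1.82 and 2.69 in BxPC-3-GR (−1.49 ± 0.16, adjusted p = 0.00051), and averaged 5.11 and 5.62 FPKM in the CFPAC-1 pair (0.12 ± 0.10, adjusted p = 0.29). HIST2H4B averaged 3.70 and 0.866 FPKM (−1.33 ± 0.09, adjusted p = 6.9e-05) and 1.76 and 1.43 FPKM (−0.18, adjusted p = 0.039). HIST1H4E (chr6:26204552-26206038, plus strand) was the only member called higher by this test. It was at 0 in BxPC-3 and in 2 BxPC-3-GR libraries, at 0.242, 0.32 and 0.577 FPKM in CFPAC-1 and at 1.57, 2.59 and 1.25 in CFPAC-1-GR (1.0 ± 0.18, adjusted p = 0.0018), a 4.76-fold higher mean. The call was at the edge of the criterion and was lost without CFPAC-1 replicate 1 (0.93) or replicate 2 (0.98).

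The small clusters apart from HIST3H2A were low. HIST4H4, the lone H4 gene on chromosome 12, was at 0.845, 1.13 and 0.647 FPKM in BxPC-3 and 0.33, 0.207 and 0.214 in BxPC-3-GR. In CFPAC-1 it was at 0.0328, 0.0337 and 0 FPKM and in CFPAC-1-GR at 0.185, 0.0745 and 0.137. The groups did not overlap in either pair and had opposite order. HIST3H2BB averaged 0.805 and 0.338 FPKM in the BxPC-3 pair, with no overlap, and 0.216 and 0.181 in the CFPAC-1 pair. HIST3H2BA and HIST3H3 were at 0 in every library. None of these was tested.

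The test of the difference between the lines covered 30 members. The change was higher in CFPAC-1-GR than in BxPC-3-GR for 11 and lower for 1, HIST1H2AE, with 23.6% and 14.4% of 12210 genes called in those directions. The median difference was 0.67 for the members and 0.22 for all tested genes. Apart from HIST1H2BC, HIST1H4H, HIST1H3H, HIST1H2AC, HIST2H4A (1.61 ± 0.20) and HIST2H2BE (1.20 ± 0.12), the 5 others called were HIST2H4B, HIST2H2BD, HIST2H2BB, HIST2H2BC and HIST1H3E, with differences of 1.04 to 1.15. Under either other scaling of the libraries only 5 members were called higher, those with differences of 1.61 or more, and after the GC content and length correction 14 were called higher (9.31% of all genes) and none lower. The value for HIST1H2AE compares a fall in CFPAC-1-GR with a gene near 0 in the BxPC-3 pair.

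GC content moved with the result in CFPAC-1-GR. Over the tested members with a sequence it ran from 41.8 to 64.1% with a median of 56.2%, against 49.2% for all tested genes. At or above 55%, 15 members were tested, 9 were SDE lower and the median log2FC was −1.08. Below 55%, 14 were tested, none was lower, HIST1H4E was higher and the median was 0.27. In BxPC-3-GR the order was the opposite, with 6 of 18 lower at or above 55% (median −0.72) and 9 of 13 below it (median −1.39). As a description, Spearman's rho between GC content and log2FC was −0.60 over 29 members in CFPAC-1-GR and 0.29 over 31 in BxPC-3-GR, where members share libraries and sequence. The correction took between −0.97 and 0.86 off the log2FC of single members in CFPAC-1-GR and between −0.11 and 0.04 in BxPC-3-GR. The part of GC content in these results was not tested beyond that correction.

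**Figure D4:**
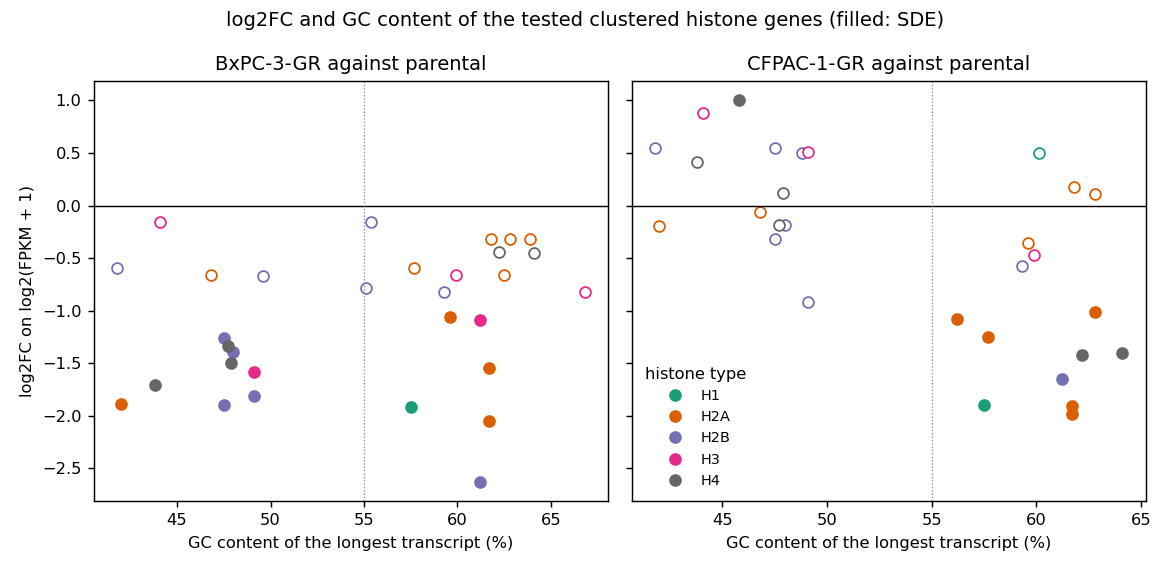
log2FC on the log2(FPKM + 1) scale against the GC content of the longest annotated transcript for the tested clustered histone genes, coloured by type, with filled points for SDE genes and a dotted line at 55%. In CFPAC-1-GR the 9 genes called lower lie at or above 55% and the gene called higher lies below it, whereas in BxPC-3-GR called genes lie on both sides.

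Whether the annotation holds an extended transcript end separated the members in a similar way. For 24 of the 71 coding members the annotation holds a transcript that continues more than 100 bases past the stem-loop, or transcripts both with and without it. HIST1H2BJ, for which no stem-loop was found, counts among the others. In BxPC-3-GR, 9 of 12 tested members of this kind were lower (median log2FC −1.36), among them HIST1H2AC, HIST1H2BC, HIST1H2BD, HIST1H3H and HIST1H4H, and 6 of the 15 other tested coding members (median −0.66). In CFPAC-1-GR, 1 of 13 of this kind was lower, HIST3H2A, with HIST1H4E higher (median 0.12), and 8 of the 15 others were lower (median −1.01). The extended members are also lower in GC content, with a median of 47.5% against 61.2% in the CFPAC-1-GR set, so transcript ends and GC content cannot be told apart here. For many of the others, such as HIST1H1C, HIST1H2BK, HIST2H2AC and HIST1H4K, the annotated transcript stops with the coding sequence. Their true ends are therefore unknown, and the split partly follows how completely the ends were annotated.

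H2A and H2B genes often lie head to head with a shared upstream stretch. HIST1H2BC and HIST1H2AC are 218 bases apart, and the promoter windows printed for them overlap. They had like values in BxPC-3-GR (−1.90 and −1.89) and averaged 8.93 and 12.9 FPKM in BxPC-3. In CFPAC-1-GR the values were 0.55 and −0.19. HIST1H2BK and HIST1H2AH, 330 bases apart, were far from each other in level, at 236 and 0.725 FPKM in BxPC-3. HIST1H2BG and HIST1H2AE, 282 bases apart, were both near 0 in the BxPC-3 pair, and in CFPAC-1-GR HIST1H2BG had a log2FC of 0.50 where HIST1H2AE had −1.08. HIST2H2BE and HIST2H2AC, 322 bases apart, had −1.39 and −0.32 in BxPC-3-GR and −0.19 and −1.01 in CFPAC-1-GR. After the GC content and length correction their CFPAC-1-GR values were −0.26 and −0.06. The pairs named here thus had unlike levels, or unlike log2FC before that correction, in 1 or both lines. Other pairs were not described.

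Members too low for the test were counted by whether the 3 resistant and 3 parental libraries overlapped. In the BxPC-3 pair 74 members were above 0 in at least 1 library, and 44 were lower in BxPC-3-GR with no overlap and 0 higher, where 23.0% and 20.1% of all genes above 0 were in those states. Of the 42 below the minimum for the test, 30 had the lower mean in BxPC-3-GR, 16 of them with no overlap, and 12 the higher. In the CFPAC-1 pair 76 members were above 0, and 15 were lower and 16 higher with no overlap, against 18.8% and 34.6% of all genes. Of the 46 below the minimum, 1 was lower and 8 were higher with no overlap. HIST1H2AD, HIST1H2BH, HIST1H3F and HIST1H4F were at 0 in every library of the BxPC-3 pair. In CFPAC-1, HIST1H2AD, HIST1H2BH and HIST1H3F were above 0 in every library, HIST1H3F with only 1, 1 and 3 fragments. HIST1H4F was at 0 in CFPAC-1 replicate 1 and rested on 1 fragment in each other CFPAC-1 library.

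Genes of related function were counted for comparison. Of all tested genes, 4.14% were SDE higher and 3.62% lower in BxPC-3-GR, and 20.5% and 11.7% in CFPAC-1-GR. After the GC content and length correction the shares in CFPAC-1-GR were 4.69% and 3.97%. Of 21 replacement and other histone genes outside the clusters, which are made throughout the cell cycle for the most part, 12 were tested in BxPC-3-GR and only H2BFS was lower, and 13 in CFPAC-1-GR with 5 lower. Besides H2BFS these included H1FX, a linker histone (238 to 58.3 FPKM, −2.01), and H2AFX, the H2A form phosphorylated at DNA breaks (257 to 72.5 FPKM, −1.81). After the GC content and length correction neither was called (−0.91 and −0.72), and 2 of the list were lower. The polyadenylated linker histone gene H1F0 averaged 113 and 195 FPKM in the BxPC-3 pair (0.79, no call) and 183 and 167 FPKM in the CFPAC-1 pair. Of the factors for transcription and 3′ end processing of histone mRNA, 1 of 28 tested was lower in BxPC-3-GR, CCNE1, the cyclin of S phase entry (6.74 to 1.92 FPKM, −1.41). In CFPAC-1-GR 6 of 26 were higher and 2 lower, led by CASP8AP2, which takes part in cutting the 3′ end (0.139 to 2.41 FPKM, 1.57). After the GC content and length correction CASP8AP2 was at 0.21, and 0 of the list were higher and 1 lower. SLBP itself averaged 16.0 and 12.3 FPKM in the BxPC-3 pair and 9.72 and 16.8 FPKM in the CFPAC-1 pair, with no call in either.

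Of the histone chaperones, IPO4, which imports H3 and H4 into the nucleus, was lower in both lines (12.7 to 5.63 FPKM, −1.05, and 33.6 to 9.66 FPKM, −1.71). It was the only one called of 21 tested in BxPC-3-GR. In CFPAC-1-GR 8 of 20 were higher (20.5% of all tested genes), and 1 after the GC content and length correction (4.69%). Of 50 S phase genes, 3 were lower and 0 higher in BxPC-3-GR: CDC25A, the phosphatase that activates CDK2 (−1.34 ± 0.34), RRM2, a subunit of ribonucleotide reductase (11.3 to 4.31 FPKM, −1.22 ± 0.11), and GINS3, a subunit of the replicative helicase complex (−1.21). Of all genes tested in BxPC-3-GR, 3.62% were SDE lower and 4.14% higher. The median over the list was −0.36 against −0.05 for all genes, and 37 of the 50 were lower at an adjusted p below 0.05 (31.5% of all genes). In CFPAC-1-GR 10 of 48 were higher and 5 lower, near the shares of all tested genes (20.5% and 11.7%). The largest rise was that of USP1, a deubiquitinase of DNA repair (3.76 to 22.9 FPKM, 2.32). The median was 0.43, against 0.13 for all tested genes. After the GC content and length correction 2 were higher and 0 lower, and the median was 0.06. The S phase list thus had a lower median in the line where every tested histone member was lower. By flow cytometry, however, the paper found smaller shares of S phase cells in both resistant lines. The part of S phase share in these results was not tested.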

How the data were processed

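RNA-seq of 12 libraries, 3 for each parental and each resistant line, was analysed from 1 table of FPKM values that the authors deposited. Per the labels, reads were trimmed and checked with Trimmomatic 0.27 and FastQC 0.10.1 and aligned with TopHat2 2.0.8; the program that made the FPKM values, and whether strand was used, are not given in the sources used here. The labels name both hg19 and GRCh38, and the coordinates of 88 of the 89 members matched to GENCODE 29 (GRCh38) lay at the annotated locus. FPKM divides fragments by transcript length and library size, so short genes rest on few fragments. Groups and replicate numbers came from the labels.

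The rule for members uses gene names alone, but the members and the gene lists were chosen for study with earlier results of these data known. Genes averaging at least 1 FPKM in the libraries compared were fitted on log2(FPKM + 1) with limma 3.58.1 (R 4.3.3), with no block and no covariate, within each line and, for the difference between the lines, over the 12 libraries. Calls needed an adjusted p below 0.05 over all tested genes and an absolute log2FC of at least 1. The fit was tested on simulated data. Fragments per gene were read from the steps of the FPKM values of 72 single-transcript members. In 11 libraries every such value of up to 100 fragments was a whole multiple within 0.05, and in CFPAC-1-GR replicate 2 97.9% were.

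Members named with values were the 3 most abundant of each type, those called in both lines, the 5 largest changes in each direction per line, up to 6 called in the difference, HIST4H4 and the HIST3 genes, and from each other list those called in both lines or, failing that, the largest change in each line; others were named after their values were seen. Alternatives were another pseudocount (0.1), filter, scaling, prior, fold test, GC content and length correction (splines with 5 degrees of freedom each), protein-coding genes alone, copies with an identical protein summed, a replicate block and each library left out. Stem-loops were searched in GENCODE 29 transcripts and motifs in RefSeq promoters with Python 3.11.15.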

Additional observations from a re-analysis of the deposited data

Results flagged for a closer look

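For 12 members the change in CFPAC-1-GR differed from that in BxPC-3-GR by the test of the difference itself (limma, adjusted p below 0.05 and an absolute difference of at least 1 on the log2 scale). The difference, CFPAC-1-GR minus BxPC-3-GR, was 2.45 for HIST1H2BC, 2.12 for HIST1H4H, 2.09 for HIST1H3H, 1.69 for HIST1H2AC and 1.61 for HIST2H4A. It was 1.20 for HIST2H2BE, 1.15 for HIST2H4B, 1.14 for HIST2H2BD, 1.12 for HIST2H2BB, 1.06 for HIST2H2BC and 1.04 for HIST1H3E. HIST1H2AE, near 0 in the BxPC-3 pair, had the one negative difference, −1.03. HIST2H2BD and HIST2H2BB are annotated as pseudogenes, and HIST2H2BC has the symbol of a pseudogene in RefSeq.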

How the results depend on the processing

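Counts of members are for the 2 comparisons and for the difference between the lines. In BxPC-3-GR the count lower was 9 under a test against an absolute log2FC of 1, and 14 to 15 with a library left out. In CFPAC-1-GR the count lower was 5 under that test, 2 after the GC content and length correction, also 2 with the replicate block added to it, and 8 to 9 with a library left out. The count higher there was 2 with a pseudocount of 0.1, 3 after the correction with or without the replicate block, 0 under median-of-ratios scaling, upper-quartile scaling, the test against 1 or summed copies, and 0 to 1 with a library left out. For the difference, the count higher was 5 under either scaling and under the test against 1. The count lower was 2 with a pseudocount of 0.1, 3 and 5 under median-of-ratios and upper-quartile scaling, 0 after the correction with or without the block and under the test against 1, and 0 to 3 with a library left out. The ratio of summed FPKM in BxPC-3-GR was 0.240 for coding members and 0.405 without the most abundant member of each type, and in CFPAC-1-GR 0.784 without these, 0.326 under median-of-ratios and 0.288 under upper-quartile scaling. The cause of these shifts was not tested.

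The median log2FC of all genes in CFPAC-1-GR was 0.13, and −0.14 and −0.29 under median-of-ratios and upper-quartile scaling. Signs that turned in CFPAC-1-GR were HIST1H2AD (−0.0275 and −0.11 under these scalings, −0.16 to 0.46 with a library left out), HIST1H2AM (−0.0329 and −0.15, and −0.0776 to 0.52) and HIST2H4A (−0.15 and −0.30). HIST1H2AG came to 0.0853 with summed copies and 0.0043 and 0.0014 with a library left out. After the GC content and length correction, with or without the replicate block, HIST1H2AI was 0.51, HIST1H2BO 0.23, HIST2H2BD −0.32, HIST1H3C 0.38 and HIST1H4H −0.12. The H1 sum ratio without HIST1H1C was 1.92. In BxPC-3-GR, HIST1H2BM was −0.48 to 0.26 with a library left out. For the difference, HIST1H1C was −0.33 and −0.45 under the scalings and −0.0707 to 0.14 with a library left out, HIST2H2AA4 −0.21 and −0.33, HIST1H2BO −0.0425 and HIST1H3C −0.0674 under upper-quartile scaling, and HIST1H3C −0.0099 to 0.41 with a library left out. HIST2H2AA3 came to 0.54, HIST2H2AC to 0.26 and HIST3H2A to 0.11 after the correction, and HIST2H2AA3 to 0.0307 with summed copies.

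Samples share replicate numbers, but no correlation of same-numbered libraries passed 0.1 (−0.143 to 0.096). Whether same-numbered libraries share more than a number cannot be told from these values or the labels. With the replicate block alone the counts were 15 lower in BxPC-3-GR and 9 lower in CFPAC-1-GR, and no call changed. Members under 1 FPKM rest on few fragments, and 3 libraries per line limit the precision.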
